A study of Mus musculus with 4 samples.

Results

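Tropomyosins are coiled-coil proteins that polymerise along the groove of actin filaments. In mouse they come from 4 genes, Tpm1, Tpm2, Tpm3 and Tpm4, and all 4 were taken here by gene symbol from the 39179 genes of the table. All 4 were among the 15058 genes tested, whose normalized read counts averaged 10 or more over the libraries. RNA had been sequenced from what is described as primary aortic smooth muscle cells, the contractile cells of the wall of the aorta. The sample titles say only aorta. Markers of fibroblasts, endothelial cells, adipocytes and macrophages were also counted in every library, so the RNA may not come from smooth muscle cells alone. There were 2 libraries from mice labelled Sm-Yap/Taz-KO (KO), in which Yap1 and Wwtr1, the genes of the transcriptional co-activators YAP and TAZ, are targeted, and 2 from wild-type mice (WT). Both genotypes had received tamoxifen 18 days before. The sources used here do not give the Cre driver, the alleles, the strain, the sex, the age or whether the WT mice carried a Cre or a floxed allele. The labels do not say whether libraries of 1 genotype are separate animals, so p-values rest on a spread between libraries that may be technical.

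Each tropomyosin gene gives several proteins through alternative promoters and exons. Tpm1 and Tpm2 give the long tropomyosins of smooth and striated muscle, Tpm1 also gives short cytoskeletal ones, and Tpm3 and Tpm4 are best known outside striated muscle for short forms on the stress fibres and cortical filaments of non-muscle cells. Which tropomyosin coats a filament is known to affect which myosins, severing proteins and capping proteins can work on it. In smooth muscle, tropomyosin lies on the thin filament with caldesmon and calponin, and without troponin. Smooth muscle tropomyosin genes are known targets of serum response factor and its co-activators.

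GENCODE M21 on GRCm38 places Tpm1 on chromosome 9 (67022590 to 67049406, minus strand), Tpm2 on chromosome 4 (43514711 to 43523765, minus strand), Tpm3 on chromosome 3 (90072649 to 90100902, plus strand) and Tpm4 on chromosome 8 (72134975 to 72153142, plus strand). The annotation gives 21 transcripts to Tpm1, 16 to Tpm3, 6 to Tpm2 and 2 to Tpm4. The deposited values are 1 number per gene, so the transcripts of a gene cannot be told apart. In the longest consensus (CCDS) coding sequence of each gene, Tpm1 and Tpm2 encode 284 amino acids, Tpm3 285 and Tpm4 248. Between pairs of these coding sequences, 68.2% (Tpm3 with Tpm4) to 76.1% (Tpm1 with Tpm3) of the aligned bases were identical. The most alike stretch of 60 coding bases is shown because it bears on whether a short read can be given to 1 gene. Bases that differ between any of the genes are in capitals, 12 of 60, and the sequences come from the GENCODE M21 transcripts.
Tpm1: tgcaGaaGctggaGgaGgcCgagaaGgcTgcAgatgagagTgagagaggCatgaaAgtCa
Tpm2: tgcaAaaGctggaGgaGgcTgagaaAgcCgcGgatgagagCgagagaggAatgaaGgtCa
Tpm3: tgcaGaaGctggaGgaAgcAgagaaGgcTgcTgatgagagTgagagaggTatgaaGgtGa
Tpm4: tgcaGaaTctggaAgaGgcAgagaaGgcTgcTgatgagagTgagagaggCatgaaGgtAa
Even there no run of 50 bases was shared between members. Over whole transcripts, neither Tpm1 nor Tpm2 shared any stretch of 50 bases with another annotated transcript. Tpm3 shared 23.2% of its 6271 different 50-base stretches with Tpm3-rs7, a retrogene on chromosome 14, and Tpm4 shared 11.7% with the processed pseudogene Gm7809, for which no value is used here. Counts of Tpm3 and Tpm4 may therefore be too low or shared, depending on how the authors counted reads that fit several places, and the level of Tpm3 is the least certain of the 4. Exons of the antisense gene Gm26586 cover 6.08% of the Tpm4 exon bases, and it was at 70 and 83 normalized counts in KO and at 96 and 67 in WT. Tpm3-rs7 itself was at 109 and 11 normalized counts in KO and at 2 and 67 in WT, with no common direction, and Tpm3-rs2, a Tpm3 pseudogene, was listed at 0 throughout.

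The normalized counts of a library summed to between 13279332 and 13861333 in KO and between 14235444 and 14519178 in WT. The steps between the rounded values put the reads on genes at 12290000 and 11810000 in KO and at 15620000 and 16810000 in WT. As a check of the labels, Yap1 had 947 and 962 normalized counts in KO and 1966 and 1877 in WT, and Wwtr1 had 2848 and 2466 in KO and 3423 and 4016 in WT. Whole-gene counts include reads outside a deleted part. Wwtr1 did not pass the threshold (log2 fold change -0.48, limma adjusted p = 0.0553). The smooth muscle markers were present in every library, the lowest being Des with 470 normalized counts in KO replicate 2. Over all genes, limma called 9.58% higher and 6.7% lower in KO (adjusted p under 0.05), 16.3% in either direction, and the KO and WT libraries did not overlap for 62.8%.

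The members of the tropomyosin family changed in opposite directions in KO. Tpm1 and Tpm2 fell and Tpm3 and Tpm4 rose. Gene-level values do not tell which long or short forms of a gene changed. In all, 4 of 4 members passed the threshold, against the background of 16.3%. The members were chosen with earlier results of these data known, so this count is a description.

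Tpm1, the most abundant tropomyosin gene of the WT libraries, had 12447 and 10521 normalized counts in KO and 33139 and 29657 in WT. Both KO values lay far below both WT values. The means were 11484 ± 1360 in KO and 31398 ± 2460 in WT (SD, n = 2 each), a 2.73-fold lower level in KO. On the log2(value + 1) scale the change was -1.45 (SE 0.14, 95% interval -1.79 to -1.12, limma adjusted p = 0.00701), and 2.4% of all tested genes had a lower fold change.

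Tpm2, the gene of β-tropomyosin, which pairs with the Tpm1 product in smooth muscle, had 3303 and 3377 normalized counts in KO and 5823 and 5610 in WT. The libraries within each genotype were nearly alike and the genotypes did not overlap. Tpm2 was 1.71-fold lower in KO, with a log2 fold change of -0.77 (SE 0.09, 95% interval -1.01 to -0.54, limma adjusted p = 0.00988). The interval of Tpm1 lay wholly below that of Tpm2. The log2 ratio of Tpm1 to Tpm2 within a library was 1.91 and 1.64 in KO and 2.51 and 2.40 in WT, without overlap (exact two-sided permutation p = 0.333, the smallest that 2 against 2 libraries allow).

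Tpm4, whose product is the main short tropomyosin of platelets and many migrating cells, had 4515 and 5641 normalized counts in KO and 2305 and 2696 in WT. Every KO library was above every WT library, and KO replicate 2 was the highest. The level was 2.03-fold higher in KO, with a log2 fold change of 1.02 (SE 0.15, 95% interval 0.66 to 1.38, limma adjusted p = 0.013). Tpm3, whose short products are found on the actin filaments of most cells, was the lowest member and had 939 and 1388 normalized counts in KO and 684 and 663 in WT. The groups did not overlap, but the KO libraries differed from each other 1.48-fold, the widest spread of any member within a genotype. Its log2 fold change of 0.76 (SE 0.20, 95% interval 0.28 to 1.24) passed only just, at a limma adjusted p of 0.0499. With a pseudocount of 0.5 in place of 1 the adjusted p was 0.0508.

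**Figure D1:**
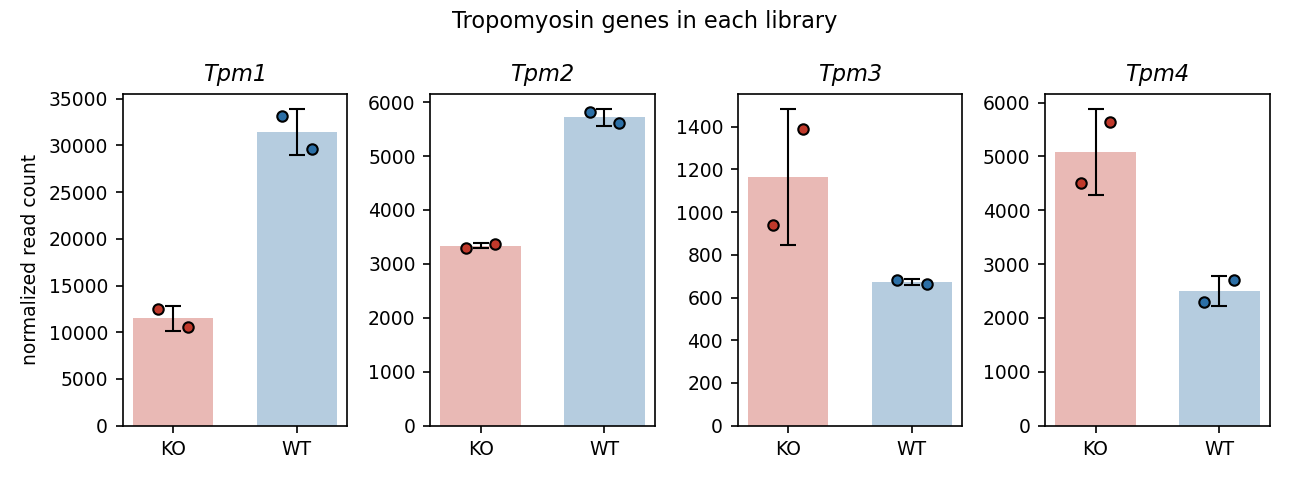
Normalized read counts of Tpm1, Tpm2, Tpm3 and Tpm4 (1 panel each, y axis from 0, own scale) in KO and WT. Points are single libraries, bars are means and whiskers are SDs (n = 2 each). KO lies below WT for Tpm1 (12447 and 10521 against 33139 and 29657) and Tpm2 and above it for Tpm3 and Tpm4 (4515 and 5641 against 2305 and 2696).

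These calls depended on the test settings more than the directions did. Without a filter on low values the limma adjusted p was 0.0815 for Tpm1 and Tpm2, 0.167 for Tpm3 and 0.0999 for Tpm4, and without the intensity trend it was 0.0707 for Tpm1, 0.0802 for Tpm2, 0.155 for Tpm3 and 0.0873 for Tpm4. With 1 library left out the log2 fold changes ran from -1.58 to -1.33 for Tpm1, from -0.80 to -0.75 for Tpm2, from 0.48 (without KO replicate 2) to 1.04 (without KO replicate 1) for Tpm3 and from 0.86 to 1.18 for Tpm4. In those refits only Tpm1, without WT replicate 2, kept an adjusted p under the threshold (0.0428). No setting turned a direction.

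**Figure D2:**
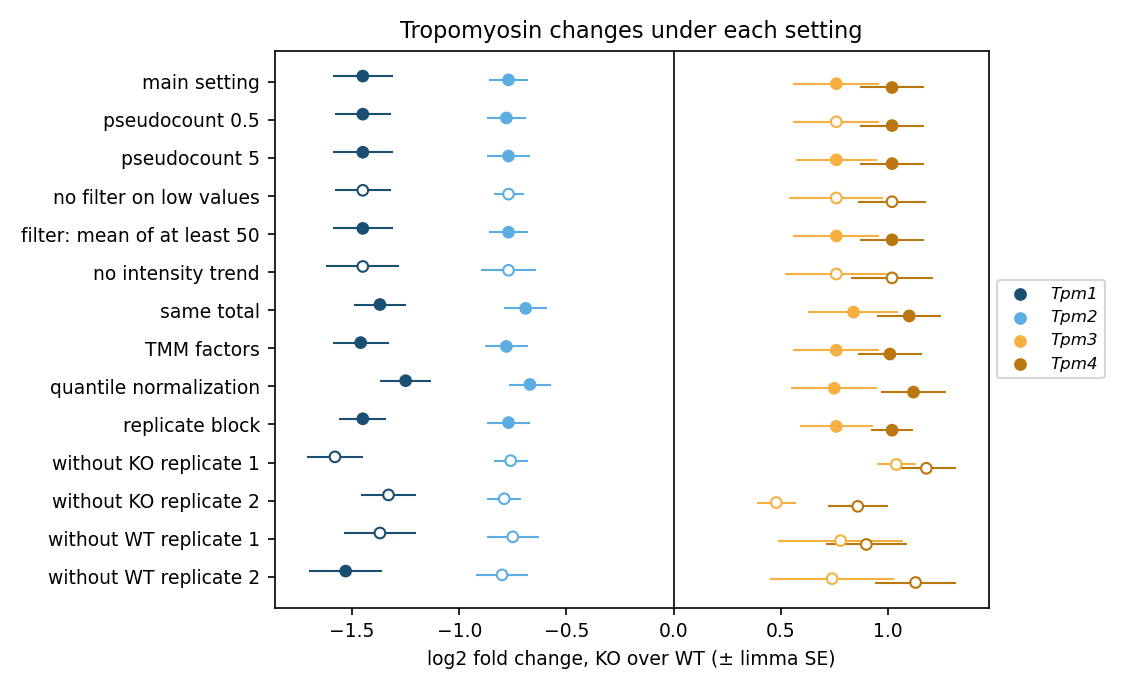
Log2 fold change of each tropomyosin gene, KO over WT (x axis, whiskers are limma SEs), under each test setting (y axis). Filled points have a limma adjusted p under 0.05 and open points do not. Tpm1 and Tpm2 lie left of 0 and Tpm3 and Tpm4 right of it in every setting drawn, and the points of the refits with 1 library left out are open except Tpm1 without WT replicate 2.

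The summed normalized count of the 4 genes was 21204 and 20927 in KO and 41951 and 38626 in WT. The family total was thus 0.523 of the WT value in KO, without overlap (exact two-sided permutation p = 0.333, the smallest possible). The fall of Tpm1 and Tpm2 was larger in counts than the rise of Tpm3 and Tpm4. Tpm1 and Tpm2 together had 15750 and 13898 normalized counts in KO and 38962 and 35267 in WT, whereas Tpm3 and Tpm4 together had 5454 and 7029 in KO and 2989 and 3359 in WT.

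Within a library the shares of the family do not depend on how libraries were scaled. Tpm1 made up 58.7% and 50.3% of tropomyosin counts in KO and 79.0% and 76.8% in WT. Tpm4 made up 21.3% and 27.0% in KO and 5.49% and 6.98% in WT, a mean difference of 17.9 percentage points. Tpm3 made up 4.43% and 6.63% in KO and 1.63% and 1.72% in WT. The WT libraries were thus dominated by 1 gene, and the KO libraries were more evenly divided. The share of Tpm2 hardly differed, at 15.6% and 16.1% in KO and 13.9% and 14.5% in WT. For Tpm1, Tpm2, Tpm3 and Tpm4 alike the shares of the genotypes did not overlap (exact two-sided permutation p = 0.333 for each, the smallest possible). The 4 shares make up the whole of each library's tropomyosin, so they are not separate observations. By counts, 62.8% of all tested genes did not overlap either.

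A longer transcript gives more reads, so levels of different genes were compared per kb of merged exon length (6.49 kb for Tpm1, 2.91 for Tpm2, 6.08 for Tpm3 and 2.2 for Tpm4). On that scale Tpm4 led in KO, with 2050 and 2560 normalized counts per kb, followed by Tpm1 (1920 and 1620), Tpm2 (1140 and 1160) and Tpm3 (154 and 228). In WT the order was Tpm1 (5110 and 4570), Tpm2 (2000 and 1930), Tpm4 (1050 and 1220) and Tpm3 (112 and 109). No neighbours in either order overlapped between libraries of the same genotype. Tpm1 ranked 160th in KO and 42nd in WT among 14911 tested genes with a known length, and Tpm4 ranked 114th in KO and 319th in WT. The ratio of Tpm1 to Tpm4 per kb was 0.937 and 0.634 in KO and 4.88 and 3.74 in WT. By length-corrected share, Tpm4 held 39.0% and 46.0% in KO and 12.7% and 15.6% in WT, and Tpm1 held 36.5% and 29.1% in KO and 61.8% and 58.4% in WT. Per kb the small difference of Tpm2 turned round, to 21.6% and 20.8% in KO and 24.2% and 24.6% in WT, so its share has no direction that holds on both scales. The merged length includes retained introns and all alternative exons, and a change of transcript within a gene would alter the length that applies. It joins 21 transcripts for Tpm1 and 2 for Tpm4. By counts Tpm1 stayed above Tpm4 in KO (ratio 2.76 and 1.87), so the lead of Tpm4 in KO rests on these lengths.

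**Figure D3:**
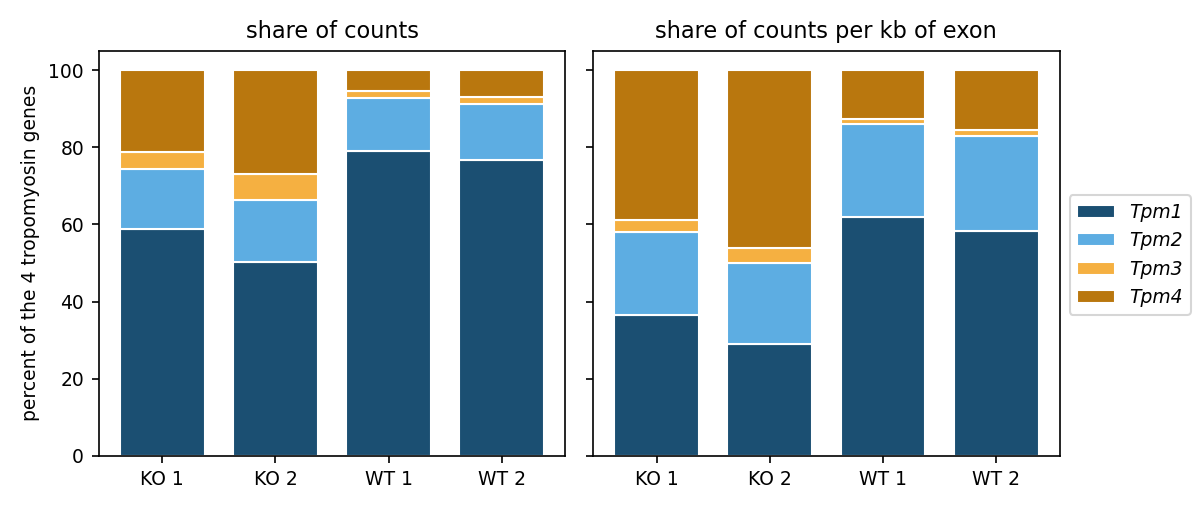
Composition of the tropomyosin pool in each library (KO 1, KO 2, WT 1, WT 2 on the x axis) as a percentage of the 4 genes, by normalized counts (left) and by normalized counts per kb of merged exon length (right). The Tpm1 part is smaller in KO (58.7% and 50.3%) than in WT (79.0% and 76.8%), and the Tpm4 part is larger.

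The log2 ratio of Tpm1 and Tpm2 to Tpm3 and Tpm4 was 1.53 and 0.98 in KO and 3.70 and 3.39 in WT, a difference of -2.29 (exact two-sided permutation p = 0.333, the smallest possible). As plain ratios there were 2.89 and 1.98 counts of Tpm1 and Tpm2 for each count of Tpm3 and Tpm4 in KO, against 13.0 and 10.5 in WT. Counted reads limit these values little. The estimated reads behind a value ran from 750 (Tpm3, WT replicate 1) to 36370 (Tpm1, WT replicate 1), a counting error of 3.65% to 0.524%, well under the differences between genotypes.

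Summed per kb, tropomyosin was at 0.672 of the WT level in KO and actin at 0.416. By counts tropomyosin was at 0.523, so the per kb values that follow depend on the merged exon lengths. The 6 actin genes together had 42116 and 36742 normalized counts per kb in KO and 98107 and 91682 in WT, and for every 100 of them there were 12.5 and 15.2 of tropomyosin in KO and 8.43 and 8.55 in WT. The log2 ratio of Tpm1 to Acta2, the smooth muscle α-actin gene, was -1.73 and -1.67 in KO and -2.25 and -2.34 in WT, and that of Tpm2 to Acta2 was -3.64 and -3.31 in KO and -4.76 and -4.74 in WT. None of these ratios overlapped between genotypes (exact two-sided permutation p = 0.333 for each, the smallest possible), and 62.8% of all tested genes did not overlap by counts. The actin genes did not move together. Acta2 was at 0.243 of its WT mean in KO, and Actb, the gene of cytoplasmic β-actin, had 48169 and 44739 normalized counts in KO and 61551 and 53652 in WT (log2 fold change -0.31, limma adjusted p = 0.197). Actg1 (log2 fold change 0.52), Actg2 (0.60) and Actc1 (2.45) rose, so the ratio to summed actin does not describe each actin. Of these, Actb, Actg1 and Actg2 are named after their values were seen. Actin genes are close copies of each other, and reads that fit several of them may have been lost or shared.

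Other genes of the thin filament moved both ways, as the tropomyosins did. Of 20 listed actin genes and actin filament partners, 18 were tested, 7 fell, 4 rose and 7 did not pass, with a median log2 fold change of -0.24, beside -0.02 over all tested genes (background 6.7% lower and 9.58% higher). Acta2 fell to 41201 and 33544 normalized counts in KO, against 157904 and 150117 in WT (log2 fold change -2.05). Tagln, the actin-binding transgelin, had a log2 fold change of -1.44, and Cnn3, a calponin, one of -0.96. An opposite-strand gene covers 62.4% of the exon bases of Tagln, and another covers 17.7% of those of Cnn3. Actc1, the cardiac α-actin gene, rose to 498 and 475 normalized counts in KO, against 78 and 100 in WT (log2 fold change 2.45). Some further list members were chosen after their values were seen, for their role on tropomyosin-coated filaments. Cald1, the gene of caldesmon, fell with a log2 fold change of -0.62, as did Cnn1 (-0.83) and Lmod1 (-0.96), which encodes the leiomodin of smooth muscle. Tropomodulins cap the pointed ends of actin filaments by binding tropomyosin. Tmod3, the widely expressed one, rose to 2044 and 1788 normalized counts in KO, against 877 and 1224 in WT (log2 fold change 0.88, limma adjusted p = 0.0271), and Tmod2 at 0.99 missed the threshold (adjusted p = 0.0559).

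Among 27 tested genes of actin filament assembly and turnover, 5 rose, 6 fell and 16 did not pass, with a median log2 fold change of 0.10 (over all tested genes 9.58% were called higher, 6.7% lower and the median was -0.02). Dstn, the gene of the severing protein destrin, whose family competes with some tropomyosins for actin, fell to 17176 and 14122 normalized counts in KO, against 32435 and 33248 in WT (log2 fold change -1.08). Coro1c, a coronin gene, had a log2 fold change of -0.78, and Limk1, which encodes a kinase that inactivates cofilin, one of 1.62. Coro1a, the coronin of blood cells, was at 273 and 463 in KO and at 13 and 39 in WT. The count was led by genes of different roles, and no direction was shared.

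Troponins, the calcium switch of striated muscle thin filaments, were low in every library. Of 8 troponin genes 5 passed the filter, and none of these reached the threshold by limma (adjusted p from 0.114 to 0.833), with Tnnt3 at an unadjusted p of 0.0315. With 16.3% of all tested genes called, none of 5 is not a result about troponins. Tnnt3 was at 48 and 64 normalized counts in KO and 19 and 31 in WT, and Tnnt1 was at 37 and 16 in KO and 48 and 50 in WT, while Tnnc2 was listed at 0 in every library. The 8 troponins together reached 163 to 182 normalized counts in KO and 135 to 166 in WT, beside a tropomyosin sum of 20927 to 21204 in KO and 38626 to 41951 in WT.

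Of 4 tested genes of serum response factor and its co-activators 2 fell and none rose (6.7% and 9.58% of all tested genes). Srf, which encodes the factor, fell to 540 and 595 normalized counts in KO, against 1179 and 959 in WT (log2 fold change -0.91, limma adjusted p = 0.0157). Myocd, the gene of its muscle co-activator myocardin, fell with a log2 fold change of -0.97 (limma adjusted p = 0.00972). Mkl1 and Mkl2, the genes of the related co-activators MRTF-A and MRTF-B, had log2 fold changes of 0.04 and 0.02 (95% intervals -0.26 to 0.35 and -0.23 to 0.28).

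Exon choice in tropomyosin transcripts is set by RNA-binding proteins, and 18 of them were listed, of which 16 were tested. Here 3 fell, 1 rose and 12 did not pass, with a median log2 fold change of -0.15. With 16.3% of all tested genes called in either direction (6.7% lower, 9.58% higher), a count of this size is not a result about the list. Rbpms, known in rat smooth muscle as a splicing regulator of the contractile state that acts on Tpm1, fell to 3751 and 2737 normalized counts in KO, against 7820 and 5994 in WT (log2 fold change -1.10, limma adjusted p = 0.0202). Its paralog Rbpms2 (-0.91) and Rbfox2 (-0.52) fell, and Ptbp3 rose (0.77). Ptbp1, named after its value was seen, the gene of the polypyrimidine tract-binding protein known to repress a Tpm1 exon, had a log2 fold change of 0.06 (95% interval -0.36 to 0.48). Whether any exon of Tpm1 was used differently cannot be read from gene-level values.

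**Figure D4:**
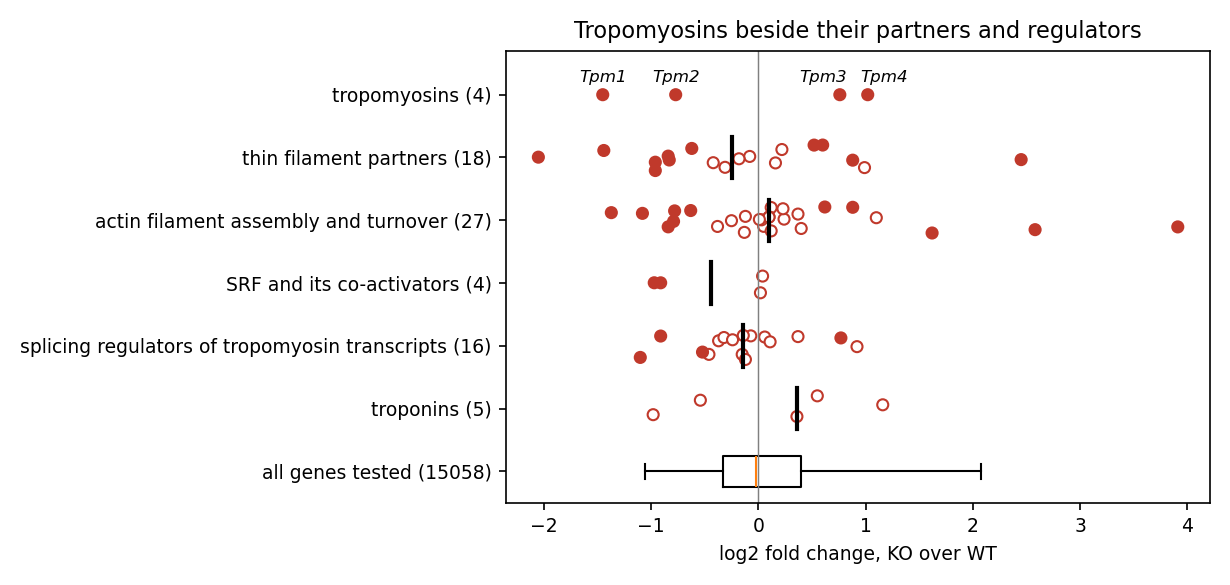
Log2 fold change, KO over WT (x axis), of the tropomyosin genes and of the tested members of 5 gene lists (rows, number of genes in brackets). Each point is 1 gene, filled where the limma adjusted p is under 0.05, and black bars are list medians. The box at the bottom gives the quartiles of all 15058 tested genes, with whiskers at the 5th and 95th percentiles. Tpm1 and Tpm2 lie left of 0 and Tpm3 and Tpm4 right of it, and the thin filament partners are spread on both sides.

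The start regions of Tpm1 and Tpm4, which changed most in each direction, are shown from RefSeq (GRCm38.p6), from 250 bases before the start site to 50 after it, on the coding strand. They were searched on both strands for the CArG box of serum response factor, the TEAD motif CATTCC (TEAD factors carry YAP and TAZ to DNA), the E box CANNTG and the AP-1 motif TGANTCA. Capitals mark the TEAD match. The Tpm1 window is chr9:67049164-67049463 on the minus strand and the Tpm4 window is chr8:72135038-72135337 on the plus strand.
Tpm1: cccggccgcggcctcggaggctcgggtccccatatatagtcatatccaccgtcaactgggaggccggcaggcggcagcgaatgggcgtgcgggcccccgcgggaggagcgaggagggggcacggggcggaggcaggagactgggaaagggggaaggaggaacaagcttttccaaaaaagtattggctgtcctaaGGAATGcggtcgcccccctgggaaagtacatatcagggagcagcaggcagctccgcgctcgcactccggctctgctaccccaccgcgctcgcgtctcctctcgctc
Tpm4: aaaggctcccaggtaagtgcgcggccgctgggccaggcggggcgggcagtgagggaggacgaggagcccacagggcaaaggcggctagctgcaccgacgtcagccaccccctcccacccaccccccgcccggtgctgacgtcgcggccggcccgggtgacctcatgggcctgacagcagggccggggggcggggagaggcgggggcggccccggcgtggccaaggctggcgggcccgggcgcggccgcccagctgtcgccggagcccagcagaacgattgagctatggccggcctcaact
The Tpm1 window held 1 TEAD match, read as GGAATG on the coding strand at -56 to -51 from the start site, and 14.7% of all 32851 windows hold one. GENCODE begins both genes upstream of these RefSeq start sites, at 67049406 for Tpm1 and 72134975 for Tpm4. The Tpm1 match and the whole Tpm4 window therefore lie inside the genes as GENCODE draws them. None of the 5 windows of the 4 genes (Tpm3 has 2) held the strict CArG box, which 1.63% of all windows hold, or the AP-1 motif (7.81%). Near matches to the CArG box were not searched. Each of the 5 held 1 E box (72.3% of all windows). The windows of Tpm4 and Tpm2 were GC-rich (76.0% and 70.3%). A match is a run of letters, not a shown binding site, and the table gives only 1 window for Tpm1, which has a second annotated start region inside the gene.

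Among 4839 other named genes with a mean of at least 500, those with the nearest profile over the 4 libraries were Mtus2, Mef2c and Cds2 for Tpm1 (Euclidean distances of centred log2 values of 0.0869, 0.0897 and 0.0913). For Tpm2 they were Creb3l2, Iqcb1 and Tnik (0.0327 to 0.0457), for Tpm4 Ugdh, Hccs and Npc2 (0.0663 to 0.118), and for Tpm3 Nr4a1, Sgk3 and Helz2 (0.137 to 0.15). With 4 libraries many profiles lie close together.

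Markers of other cells also differed between KO and WT. In bulk RNA, fewer cells of a type and less RNA per cell cannot be told apart. The counts that follow stand beside 9.58% of all tested genes called higher and 6.7% called lower. All 10 macrophage markers rose, with a summed normalized count of 12259 to 15654 in KO and 1173 to 3251 in WT. Of the markers of endothelial cells 5 of 9 rose (9483 to 11302 in KO, 3328 to 5714 in WT), of adipocytes 5 of 7 (10595 to 11390 in KO, 1323 to 3963 in WT), of fibroblasts 2 of 8 (171853 to 183632 in KO, 43983 to 101791 in WT) and of proliferating cells 4 of 5 (2976 to 4442 in KO, 260 to 618 in WT). None of the marker lists had a marker at 0 in every library. Of the 8 smooth muscle markers 7 fell (109951 to 140567 in KO, 376053 to 396462 in WT). Of the platelet markers, of interest for Tpm4, 3 were tested and Pf4 rose (log2 fold change 1.98, limma adjusted p = 0.0488), while Gp1ba was at -1.34 (adjusted p = 0.055) and Itga2b at 0.09 (adjusted p = 0.904). The 5 platelet markers listed summed to 160 to 238 normalized counts in KO and 111 to 173 in WT, and those of striated muscle to 221 to 1638 in KO and 685 to 1078 in WT. The WT libraries differed from each other in the same markers. WT replicate 1 had a macrophage sum of 1173, with Tpm1 at 33139 and Tpm4 at 2305, and WT replicate 2 had a macrophage sum of 3251, with Tpm1 at 29657 and Tpm4 at 2696. In KO replicates 1 and 2 the macrophage sum was 12259 and 15654. There Tpm1 was at 12447 and 10521 and Tpm4 at 4515 and 5641. The smooth muscle sum was 140567 and 109951 in KO replicates 1 and 2, and 396462 and 376053 in WT replicates 1 and 2. Like the macrophage sum, the proliferating cell sum was higher in KO replicate 2. So was the fibroblast sum, most of which was Col1a1 (128268 and 150818 in KO replicates 1 and 2). Apart from Col1a1 and Dpt (2194 and 2364), every listed fibroblast marker was lower in KO replicate 2, among them Dcn (22269 and 14026). The endothelial sum (11302 and 9483) and the adipocyte sum (11390 and 10595) were lower in KO replicate 2. The part of these other cells in the tropomyosin values was not tested.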

How the data were processed

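Ribosomal RNA was removed and libraries were prepared with a stranded total RNA kit, per the labels' protocols. The submitters' processing notes name FastQC, STAR 2.5.2b, featureCounts 1.5.1 (Subread), DESeq2 1.14.1 and mm10/GRCm38, without roles. How strand and reads that fit several places were handled is not given in the sources used here. The authors deposited 1 table of read counts normalized between libraries and rounded to whole numbers, which is treated as a score and not as raw counts. Size factors behind the rounding were estimated from skipped and doubled values up to 200 (largest error in 4 simulated libraries 0.007%), and they give the read totals.

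Values were tested in R 4.3.3 with limma 3.58.1 on log2(value + 1), which understates the change of low genes. Genes averaging 10 or more over the 4 libraries entered the fit, genotype was its only term, eBayes used an intensity trend (3.96 prior and 2 residual degrees of freedom), and Benjamini-Hochberg adjustment ran over all 15058 genes, with a threshold of 0.05. Shares and ratios were compared by exact permutation in SciPy 1.17.1. The alternatives were other pseudocounts, filters, scalings, no intensity trend, the replicate block and each library left out.

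The rule for named genes took the members and other Tpm genes, Yap1, Wwtr1, up to 4 genes with the smallest p per list and 3 nearest profiles per member. Cald1, Cnn1, Lmod1, Tmod2, Tmod3, Ptbp1, Actb, Actg1, Actg2, Tnnc2, Des, Pf4, Gp1ba, Itga2b, Col1a1, Dpt and Dcn fall outside it. They were chosen after their values were seen, as were genes named for overlap or shared sequence. The members and lists were chosen with earlier results of these data known. All listed genes were matched except Qki. Exon lengths and overlaps come from GENCODE M21, in which 99.0% of tested genes were found, and alignments were made with Biopython 1.88.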

Additional observations from a re-analysis of the deposited data

How the results depend on the processing

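The log2 fold changes of the 4 tropomyosin genes kept their direction in all 13 alternatives. They kept their side of the threshold under a pseudocount of 5, a mean filter of 50, rescaling to the same total, TMM factors, quantile normalization and the replicate block, and the cause of the calls lost elsewhere was not tested. With a pseudocount of 0.5, Tpm3 (0.76) was not called. Without the filter, and again without the intensity trend, Tpm1 (-1.45), Tpm2 (-0.77), Tpm3 (0.76) and Tpm4 (1.02) were not called, and 0 genes were called higher, 0 lower, 0 thin filament partners lower and 0 members of the other 4 lists by limma (5472 and 4274 genes at an unadjusted p under 0.05). With 1 library left out, Tpm1 ran from -1.58 to -1.33, Tpm2 from -0.80 to -0.75, Tpm3 from 0.48 to 1.04 and Tpm4 from 0.86 to 1.18. The genes called higher ran from 0 to 587, those lower from 0 to 153, thin filament partners lower from 0 to 2 and members of the other lists from 0 to 3. The calls above 0 came without WT replicate 2. A refit with 1 library left out has 1 residual degree of freedom and assumes that the lone library varies like the other group.

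Per kb of exon, the difference in share turned round for Tpm2 (-3.2 percentage points, against 1.65 by counts) and was 2.14 for Tpm3 (3.86 by counts) and 28.3 for Tpm4 (17.9 by counts). These differences come from the lengths, since the counts are the same. At the same total the difference in summed tropomyosin was -17479 (against -19223). Adding the Tpm3-rs7 counts to Tpm3, chosen after seeing the data, moved no share or ratio by more than the spread between libraries.

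The libraries share replicate numbers, but the labels do not say that a number marks a shared animal, litter or day. The deviations of same-numbered KO and WT libraries correlated at 0.118 over 15058 genes, and with 2 pairs this does not show pairing. With the replicate block 1823 genes were higher and 1213 lower (1443 and 1009 without), and Tpm1 to Tpm4 had the same values as above (-1.45, -0.77, 0.76 and 1.02), all called. Precision is limited by 2 libraries per genotype rather than by read depth.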
